A study of Mus musculus with 8 samples.

Results

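The cytosolic ribosomal protein genes encode the protein parts of the large and the small subunit of the ribosome that translates nuclear-encoded mRNA. The genes analysed here are those whose symbol is Rpl or Rps followed by a number with any letters, or is a P stalk gene or Rpsa, and 83 of the 23997 genes in the table met this pattern, 50 of the large and 33 of the small subunit. A few ribosomal proteins have other symbols, among them Fau, Gnb2l1 (Rack1) and Rps3a1, and are described as companions. The RNA came from marginal zone B cells (MZBs), B cells at the border of the splenic follicle that answer antigens carried in blood, of C57BL/6 mice. The labels list 4 libraries of ACKR3+ and 4 libraries of ACKR3- cells, with 4 mice in each group. ACKR3 scavenges the chemokine CXCL12. Genotype is the label's word for this difference, while sample titles use GFPposi and GFP-. No reporter allele, sorting scheme, age or sex is stated in these labels.

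For every gene the processed table gives 1 estimated number of fragments in condition q2 and 1 in condition q1, pooled over libraries, each with a variance. No label ties either column to ACKR3+ or ACKR3- cells, so all differences are given by column and say nothing on which cells were higher. The columns summed to 16653774 fragments in q2 and 16877559 in q1, and the depth of single libraries is unknown. With 1 value per condition there is no replicate check and no p-value, and the spread between mice cannot be seen. Log2 ratios are q2 over q1 with a pseudocount of 1, computed where the higher column reached 100 fragments. The value after ± is the SD of the log2 ratio that follows from the deposited variances.

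Each ribosome holds a single copy of nearly every ribosomal protein, and cells make the proteins in near-equal amounts. Their mRNAs start with a pyrimidine tract directly at the cap, the 5' TOP motif, through which mTORC1 and the RNA-binding protein LARP1 control their translation as a group. The genes have left many processed pseudogenes and some expressed retrogenes in mammalian genomes, so that reads from one gene often match several places. Resting B cells hold few ribosomes, and activation and plasma cell differentiation raise ribosome production.

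The start windows of a few members and of the companion Fau are shown because the tract at the cap is the sequence feature these genes are known to share. They were picked for having a tract, and the abundant members Rpsa, Rplp0 and Rps4x had no tract by the rule below. Each line gives 30 bases around the annotated start, 15 before it and 15 from it, with the tract in capitals, from RefSeq on GRCm38.p6.
Rps6, small subunit, chr4:86857353-86857382, minus strand: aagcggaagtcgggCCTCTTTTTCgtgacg
Rps18, small subunit, chr17:33955651-33955680, minus strand: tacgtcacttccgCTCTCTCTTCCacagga
Rpl35, large subunit, chr2:39005117-39005146, minus strand: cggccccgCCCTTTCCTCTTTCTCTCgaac
Rpl15, large subunit, chr14:18270972-18271001, minus strand: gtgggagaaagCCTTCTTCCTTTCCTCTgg
Fau, a small subunit protein fused to a ubiquitin-like domain, chr19:6057932-6057961, plus strand: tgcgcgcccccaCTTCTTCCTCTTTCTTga
A tract was taken as a C followed by at least 7 further C or T, read in the direction of the mRNA. It had to begin within 25 bases of the annotated start, on either side. The rule therefore also counts tracts away from the start, such as that of Rps15, which begins 25 bases after it. Of the 59 compared members with a promoter entry, 35 (59.3%) had one, against 17 of 68 mitochondrial ribosomal protein genes and 18.7% of all 27025 genes with an entry. The median log2 ratio was -0.12 for members with a tract and -0.13 for those without. Annotated starts can lie some bases from the true cap site, and a missing match says only that these letters are not in this window.

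Ribosomal protein transcripts took a smaller share of the fragments in q2 than in q1. The 83 genes together had 1327619 fragments in q2 and 1459527 in q1, which is 7.97% of the q2 total and 8.65% of the q1 total (exact 95% binomial intervals 7.96% to 7.98% and 8.63% to 8.66%, counting error only). All other genes together were nearly level, with 15326155 fragments in q2 and 15418032 in q1 and a log2 ratio of the sums of -0.01. The large subunit genes summed to 751111 fragments in q2 and 822672 in q1, a log2 ratio of -0.13, and the small subunit genes to 576508 in q2 and 636855 in q1, a ratio of -0.14. In bulk RNA, fewer cells of a type and less RNA per cell cannot be told apart.

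Of the 83 members, 79 passed the minimum of 100 fragments, and 5 of these were higher in q2 and 74 in q1, where 50.2% of all 9582 genes compared were higher in q2 and 49.8% in q1. Abundant genes were more often higher in q1, 61.4% of the 650 genes with at least 5000 fragments, members included. Among genes of that abundance, 73 of 74 members and 326 of 576 other genes were higher in q1. The members' transcripts are short, and of the 23 other genes of that abundance with a chosen transcript under 1000 bases, 17 were higher in q1, with a median log2 ratio of -0.09. The length is that of 1 annotated transcript per gene. Genes with longer transcripts can therefore be among the 23, which include the long non-coding RNA Malat1. Those 23 include 6 ribosomal proteins of other symbols or near-identical copies of members, all higher in q1, and the remaining 17 had a median of -0.03, with 6 higher in q2 and 11 in q1, a split made after the values were seen. The shift was small for each gene: the median log2 ratio of the 79 was -0.13, a 1.09-fold lower count in q2, with a range of -0.45 to 0.42. No member was 1.5-fold apart, where 4.97% of all genes compared were, and therefore none was 2-fold apart, where 2.28% were. A log2 ratio larger than its own deposited SD was found for 5 of the 79 members, where 19.5% of all genes had one, and none exceeded 2 SD, where 6.26% of all genes did.

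**Figure D1:**
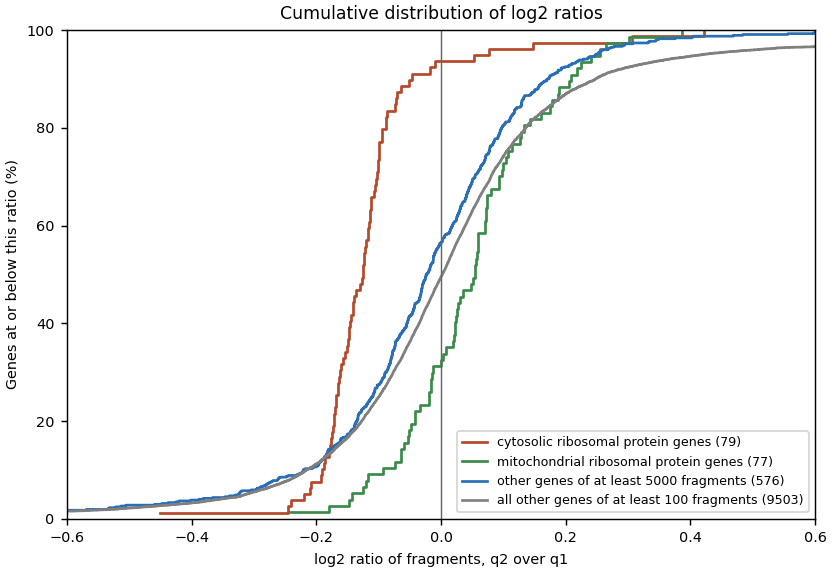
Cumulative share of genes (vertical axis, %) at or below each log2 ratio of q2 over q1 (horizontal axis) for cytosolic ribosomal protein genes, mitochondrial ribosomal protein genes, other genes of at least 5000 fragments and all other genes compared. The cytosolic curve is steep and lies almost wholly below 0, around its median of -0.13, while the mitochondrial curve is centred at 0.05.

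The members also lay close to each other. The interquartile range of their log2 ratios spanned -0.17 to -0.10, a width of 0.07, against a width of 0.20 for all genes compared and 0.19 for the 576 other genes of at least 5000 fragments. The ratios also varied with base composition. With a smooth fit over all genes that took out GC content, mean expression and transcript length, the median moved to -0.07 for the large and -0.08 for the small subunit genes, with 6 members above 0. Across the 73 members whose deposited variance was usual for their count, the Spearman correlation of the log2 ratio was -0.50 with GC content, -0.25 with log2 mean fragments and 0.14 with transcript length. These correlations are descriptions over genes that share both columns and the same libraries.

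Large and small subunit genes differed little from one another. The 47 large subunit genes compared had a median log2 ratio of -0.12, with an interquartile range from -0.16 to -0.09, and 44 of them were higher in q1. For the 32 small subunit genes the median was -0.14, with an interquartile range from -0.17 to -0.12, and 30 were higher in q1. The medians were 0.03 apart, which is less than the width of either interquartile range, and after the GC, length and level correction they were less than 0.01 apart. The ratio of summed large to summed small subunit fragments was 1.30 in q2 and 1.29 in q1.

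**Figure D2:**
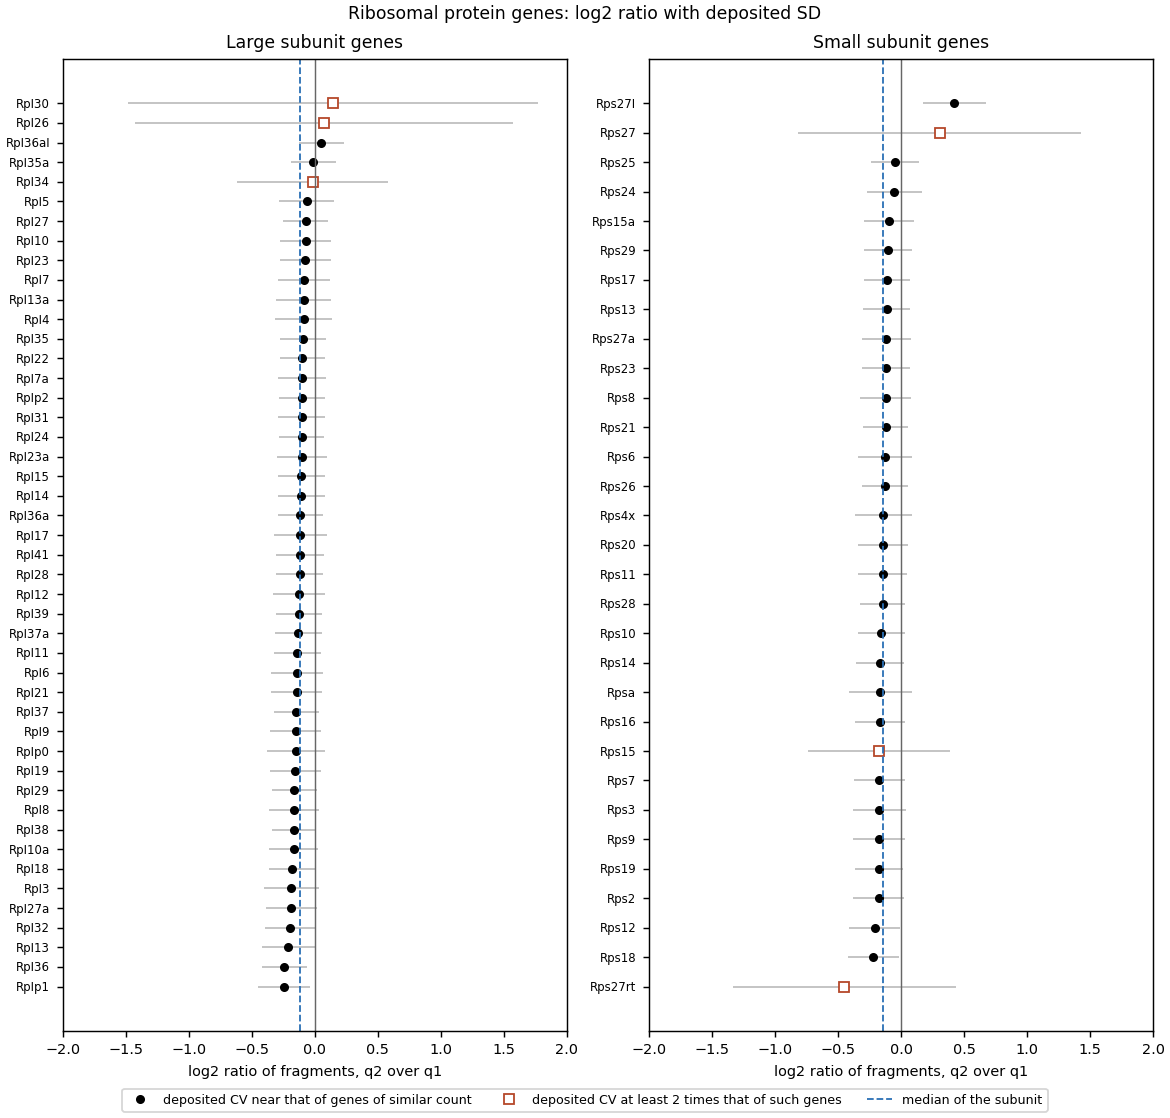
Log2 ratio of q2 over q1 (horizontal axis) of each of the 47 large (left) and 32 small (right) subunit genes compared, apart from 1 gene of each that is not shown, with bars for the deposited SD and a dashed line at the subunit's median, -0.12 and -0.14. Open squares mark the 6 genes whose deposited coefficient of variation is at least 2 times that of genes of similar count. Nearly all other points lie in a narrow band left of 0, and Rps27l stands apart on the right.

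Among the large subunit genes, Rplp1, Rpl36, Rpl13 and Rpl32 had some of the lowest ratios. Rplp1, one of the acidic P stalk proteins that recruit translation factors, had 21617 fragments in q2 and 25615 in q1, a log2 ratio of -0.24 ± 0.20. Rpl36 had 5797 fragments in q2 and 6849 in q1, a ratio of -0.24 ± 0.18. Both are among the 5 members whose ratio exceeded 1 deposited SD. Rpl13 and Rpl32 stood at -0.21 and -0.19. At the other end, Rpl35a, which is among the genes mutated in Diamond-Blackfan anaemia in people, was nearly level at 10327 fragments in q2 and 10399 in q1. Its ratio was -0.01 ± 0.18, or 0.01 when the columns were scaled to equal totals.

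The other P stalk genes and the 5S particle genes were also higher in q1, with Rpl5 above the members' interquartile range of -0.17 to -0.10. After the GC, length and level correction, Rplp0, Rplp2, Rpl5 and Rpl11 stood at -0.02, -0.04, -0.06 and -0.08. The median of the 79 members was then -0.08. Rplp0, which anchors the stalk to the ribosome, had 35738 fragments in q2 and 39694 in q1, at -0.15 ± 0.23, and Rplp2 had 10545 fragments in q2 and 11302 in q1, at -0.10 ± 0.18. Rpl5 and Rpl11 bind 5S rRNA and, when they are free of ribosomes, inhibit MDM2 and so stabilise p53. Rpl5 had 26910 fragments in q2 and 28128 in q1, at -0.06 ± 0.22, and Rpl11 had 13567 fragments in q2 and 14916 in q1, at -0.14 ± 0.19. Of 8 genes for proteins that line or ring the peptide exit tunnel, 7 were higher in q1, with a median of -0.10, and Rpl26 was the one higher in q2. Rpl22, which mouse T cell development requires, had 6799 fragments in q2 and 7282 in q1, at -0.10 ± 0.18.

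Small subunit genes placed at the mRNA channel had similar log2 ratios before correction. So did most genes of this subunit, whose interquartile range was 0.06 wide. Rps2, Rps3 and Rps9 form the mRNA entry site, and their log2 ratios were -0.18, -0.17 and -0.17. Rps14, Rps26, Rps28 and Rpsa, for proteins near the mRNA exit, were all higher in q1, with ratios from -0.16 to -0.13. After the GC, length and level correction, those at the entry ran from -0.12 (Rps3) to -0.06 (Rps2). Those near the exit ran from -0.14 (Rps26) to -0.02 (Rpsa). Rpsa was the member with the most fragments, 45549 in q2 and 51056 in q1, at -0.16 ± 0.25, and mutations in its human counterpart cause isolated congenital asplenia. Rps6, the substrate of S6 kinase below mTORC1, had 27262 fragments in q2 and 29740 in q1, at -0.13 ± 0.21. Apart from Rps27rt, the lowest ratios in this subunit were those of Rps18, with 19835 fragments in q2 and 23091 in q1 at -0.22 ± 0.20, and of Rps12, with 20396 in q2 and 23584 in q1 at -0.21 ± 0.20. Rps2 and Rps19 followed at -0.18 each. The smallest differences were those of Rps25, a protein used by several viral internal ribosome entry sites, at -0.05 ± 0.19, and Rps24, at -0.05 ± 0.22. Of members whose human counterparts are mutated in Diamond-Blackfan anaemia, 9 were listed here, among them Rps19, Rps24 and Rpl5. The 9 were all higher in q1, from -0.18 to -0.01, as were 74 of all 79 members compared. The list is not complete, and it leaves out all 5 members higher in q2, among them Rpl26 and Rps27. That the 9 were all higher in q1 therefore follows from which genes were listed. It does not describe the genes of this disease as a set. These role groups were put together after the values were seen.

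Rps27l was the member with the largest ratio toward q2. It is the p53-inducible paralog of Rps27 and is encoded on chromosome 9 (66946086 to 66949516, GRCm38). It had 388 fragments in q2 and 290 in q1, a log2 ratio of 0.42 ± 0.25, or 1.34-fold higher in q2, with an exact 95% counting interval of the log2 ratio from 0.20 to 0.64. Its ratio stayed above 0 at 0.34 after the GC, length and level correction. Rpl36al, the paralog of the X-linked Rpl36a, had 2461 fragments in q2 and 2372 in q1, at 0.05 ± 0.18, against 7956 fragments in q2 and 8610 in q1, at -0.11 ± 0.18, for Rpl36a itself. The companion paralog Rpl22l1, which rises when Rpl22 is lost in mice, had 1978 fragments in q2 and 1842 in q1, at 0.10 ± 0.18, and Rpl7l1, a factor of large subunit assembly in human cells, stood at 0.01 ± 0.18. After the correction Rpl22l1 stood at -0.03.

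The coding sequences show how far Rps27l and Rps27 can be told apart in short reads. Over 253 aligned coding bases they were 76.3% identical, and the longest identical run was 11 bases. Below are coding bases 4 to 63 of each, counted from 1 at the A of the start codon, with the 19 bases that differ in capitals, from GENCODE M21 transcripts.
Rps27: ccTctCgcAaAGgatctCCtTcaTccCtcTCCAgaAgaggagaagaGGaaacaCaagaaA
Rps27l: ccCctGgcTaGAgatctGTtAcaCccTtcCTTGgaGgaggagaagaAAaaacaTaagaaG

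Rps27 and its near-identical copy Rps27rt had ratios of opposite sign. Rps27 (chromosome 3, 90212522 to 90213651) had 13417 fragments in q2 and 10856 in q1, a log2 ratio of 0.31 ± 1.13. Rps27rt (chromosome 9, 114982366 to 114982739), annotated as a protein-coding copy, had 13170 fragments in q2 and 17996 in q1, a ratio of -0.45 ± 0.89. The 255 coding bases of the pair are identical throughout, and 98.6% of the 50-base windows of the Rps27 transcript are also found in other annotated genes. Summed, the pair had 26587 fragments in q2 and 28853 in q1, a log2 ratio of -0.12, close to the median of the group. Rps27 took 50.5% of the summed fragments in q2 and 37.6% in q1. Why the fragments were divided differently was not tested.

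The start windows of the pair are shown because they share their first transcribed bases but not the sequence upstream. Capitals mark the bases common to both as far as the Rps27 window shows them, a run that begins 1 base after the annotated start of Rps27 and at the annotated start of Rps27rt.
Rps27, chr3:90213634-90213663, minus strand: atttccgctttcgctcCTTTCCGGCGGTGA
Rps27rt, chr9:114982725-114982754, minus strand: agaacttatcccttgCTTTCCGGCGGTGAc

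For 3 large subunit genes, most fragments were assigned to a processed pseudogene. Rpl30 had 210 fragments in q2 and 190 in q1, while Gm12191 on chromosome 11 (49678710 to 49679057), which differs from its coding sequence by 1 of 348 bases, had 11859 in q2 and 12677 in q1. Rpl26 had 3339 fragments in q2 and 3166 in q1, and Gm15772 on chromosome 5 (3236431 to 3236868), with 2 of 438 bases different, had 12044 in q2 and 14081 in q1. Rpl34 had 1890 fragments in q2 and 1914 in q1, and Rpl34-ps1 on chromosome 6 (71124610 to 71124963), with 2 of 354 bases different, had 8227 in q2 and 8994 in q1. Rpl30 thus held 1.74% of its pair's fragments in q2 and 1.47% in q1, Rpl26 held 21.7% in q2 and 18.4% in q1, and Rpl34 held 18.7% in q2 and 17.5% in q1. All 3 pseudogenes lie on other chromosomes than their parents, and the first substitutions, G96A (Rpl30 to Gm12191), C177T (Rpl26 to Gm15772) and T132C (Rpl34 to Rpl34-ps1), are counted from 1 at the start codon.
The stretches of 41 bases around these 3 substitutions, with the differing base in capitals, show how little distinguishes parent and copy.
Rpl30: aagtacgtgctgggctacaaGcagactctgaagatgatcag
Gm12191: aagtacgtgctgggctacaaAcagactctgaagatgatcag
Rpl26: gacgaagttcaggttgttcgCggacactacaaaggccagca
Gm15772: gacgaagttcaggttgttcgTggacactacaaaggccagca
Rpl34: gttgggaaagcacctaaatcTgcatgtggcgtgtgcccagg
Rpl34-ps1: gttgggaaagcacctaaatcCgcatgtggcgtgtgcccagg

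Alone, Rpl30, Rpl26 and Rpl34 stood at 0.15 ± 1.63, 0.08 ± 1.5 and -0.02 ± 0.60, and the first 2 are among the 5 ratios above 0. Added to their copies they stood at -0.09, -0.17 and -0.11. With copies summed in this way for the members that had one, 2 members remained higher in q2, and both, Rps27l and Rpl36al, are paralogs. This sum was added after the data were seen.

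**Figure D3:**
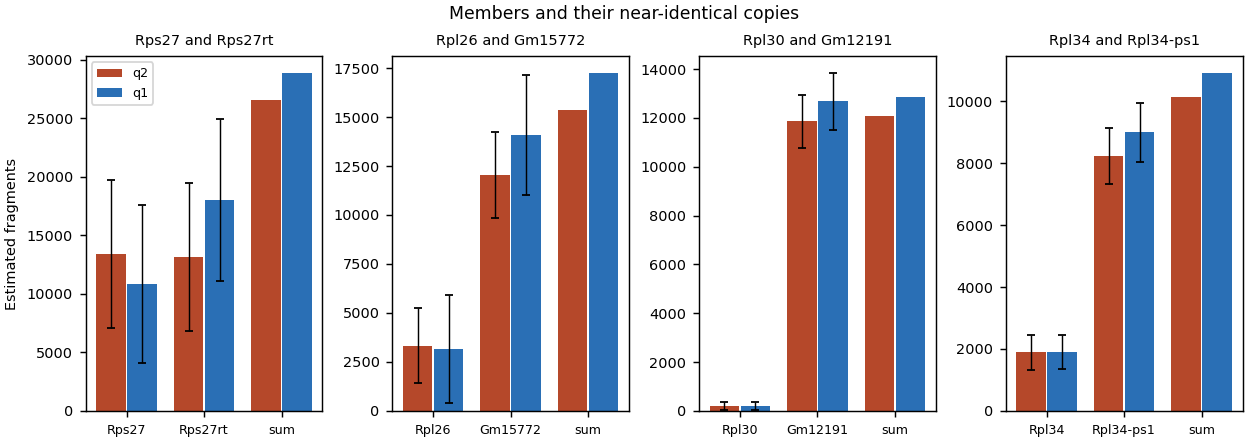
Estimated fragments (vertical axis) in q2 and q1 of 4 members, of their near-identical copy and of the sum of the pair, with bars for the deposited SD of single genes. The Rps27 pair swaps order between the columns, the other 3 members are lower than their copies, and each sum is lower in q2 than in q1.

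Most of these genes also had large deposited variances for their counts. The coefficient of variation of a count followed the count closely for most genes, and 2.98% of genes compared lay at least 2 times above the moving median of genes with like counts in either column. Among the members 6 of 79 did, namely Rpl26, Rpl30, Rpl34, Rps15, Rps27 and Rps27rt. Rpl26 had a coefficient of variation of 56.8% in q2 and 87.2% in q1, where genes of similar count had 8.64% in q2 and 8.65% in q1. For Rps27 it was 47.1% in q2 and 62.1% in q1, and for Rps27rt 48.0% in q2 and 38.4% in q1. Rps15, a protein that contacts the decoding centre, was the one of the 6 with no copy found in the table, at 28.3% in q2 and 27.0% in q1, with 17635 fragments in q2 and 19872 in q1 and a log2 ratio of -0.17 ± 0.56. No gene of the table had a variance part from isoform assignment above 0. For comparison, 39 of 83 members shared at least 50% of their 50-base windows with other annotated genes, a share not computed for all genes. Of the 6 members above, Rps27, Rps27rt and Rpl26 shared 98.6%, 91.1% and 71.3%. Rps15, Rpl34 and Rpl30 shared 39.0%, 37.9% and 29.7%.

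**Figure D4:**
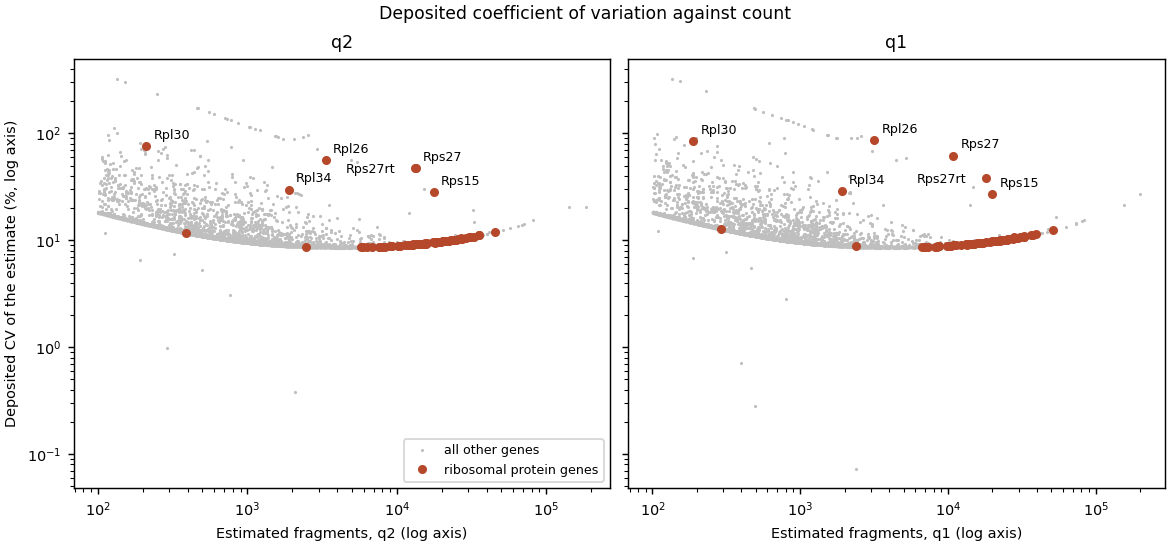
Deposited coefficient of variation (vertical axis, %, log scale) against estimated fragments (horizontal axis, log scale) in q2 (left) and q1 (right), for ribosomal protein genes and all other genes compared. The 6 named members lie well above the curve that the other members follow.

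Levels per length differed between members far more than they differed between the columns. The median was 17459 fragments per kb of transcript in q2 and 19768 in q1 over the large subunit genes, and 23067 in q2 and 25469 in q1 over the small subunit genes. The upper quartile was 2.06 times the lower one in q2 and 2.09 times in q1 for the large subunit, and 1.93 times in q2 and 1.78 times in q1 for the small subunit. Rplp1 had the highest level of the large subunit, with 43320 fragments per kb in q2 and 51334 in q1, followed within the column q1 by Rpl32, Rpl23a, Rpl13 and Rpl17, which lay between 36175 and 38789. In the small subunit Rps29, Rps27rt, Rps18, Rps12 and Rps15 were highest in q1, from 39743 to 48119 fragments per kb. Within each of these sets of 5, neighbours in the order lay closer than the larger of their deposited SDs, except Rplp1, which stood above Rpl32 by more than that. The lowest compared members were Rpl30, with 237 fragments per kb in q2 and 214 in q1, and Rps27l, with 778 in q2 and 580 in q1. The length is that of 1 annotated transcript per gene, so the level of a gene such as Rps15a, whose chosen transcript is 5179 bases long, can be understated.

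**Figure D5:**
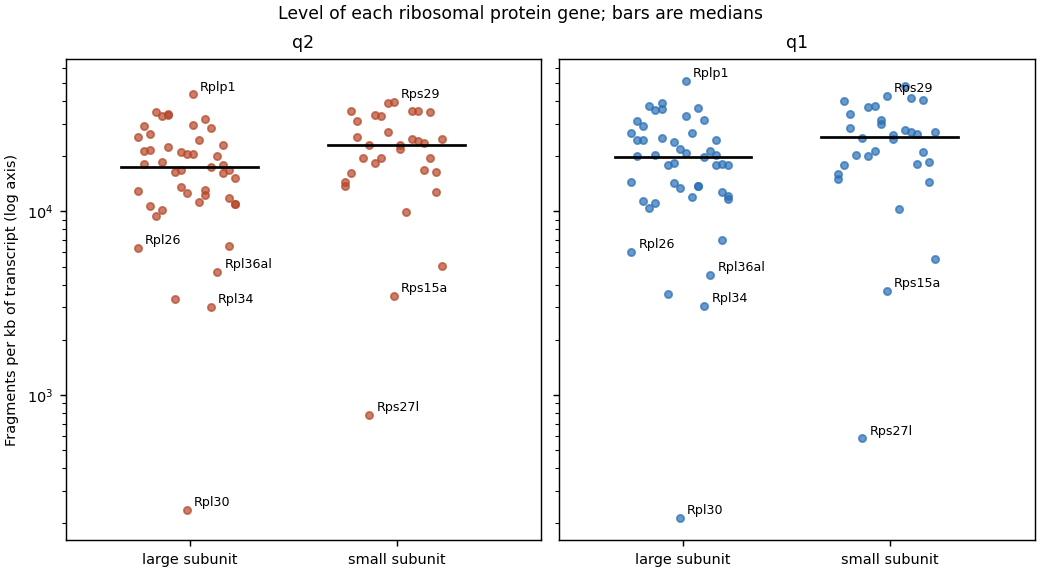
Fragments per kb of transcript (vertical axis, log scale) of each compared large and small subunit gene in q2 (left) and q1 (right), with bars at the medians. Most genes lie within a narrow range in both columns, and Rpl30 and Rps27l lie far below it.

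Members under 100 fragments were 4 paralogs. Rps4l had the most of the 4, 41.4 fragments in q2 and 45.0 in q1. Rpl30, with 210 in q2 and 190 in q1, was the compared member with the fewest. Rpl39l, a paralog known from the testis, had 2.57 fragments in q2 and 2.30 in q1, and Rpl3l, known from heart and skeletal muscle, had 0.43 in q2 and 0.30 in q1. Rpl10l, a testis paralog of the X-linked Rpl10, had 0 fragments in both columns, which allows up to 3 fragments of each column's total, and no ratio is given for the 4 paralogs. Their parents were abundant, with Rpl10 at 20427 fragments in q2 and 21484 in q1, Rpl3 at 28896 in q2 and 32884 in q1, Rpl39 at 10297 in q2 and 11224 in q1, and Rps4x at 32859 in q2 and 36189 in q1.

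Of 5 such genes listed under other symbols, 2 were higher in q2 and 3 in q1. The median was -0.09. Gnb2l1, the scaffold RACK1 on the small subunit, had 26351 in q2 and 29245 in q1, at -0.15 ± 0.21. Fau had 15105 in q2 and 16090 in q1, at -0.09 ± 0.19, or 0.02 after the GC, length and level correction, and Rps3a1, chosen after its value was seen, had 33477 in q2 and 35656 in q1, at -0.09 ± 0.22.

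The translation factors around the ribosome were divided. Of 29 elongation and initiation factors and other genes known for TOP mRNAs, 9 were higher in q2 and 20 in q1. Over all genes compared, 49.8% were higher in q1. The median was -0.03. All 6 Eef genes of the list were higher in q1. Eef1a1, which carries aminoacyl-tRNA, had 184180 fragments in q2 and 199846 in q1, at -0.12 ± 0.49, Eef2, the translocase, stood at -0.13 ± 0.27, Eef1g at -0.18 ± 0.19 and Eef1b2 at -0.16 ± 0.18. After the correction Eef1a1 stood at 0.20 and Eef2 at 0.10, while Eef1g and Eef1b2 stayed below 0. The 3 largest absolute ratios in the list were those of Vim, the intermediate filament vimentin, with 1340 fragments in q2 and 420 in q1 at 1.67 ± 0.22, Nap1l1, a histone chaperone, at 0.29 ± 0.18, and Eef1g.

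Regulators of TOP mRNA translation showed no common direction. Of 20 genes of cap binding and mTORC1 control, 10 were higher in q2 and 10 in q1. The median was -0.01. The largest ratios were those of Eif4e, the cap-binding protein, with 1118 fragments in q2 and 951 in q1 at 0.23 ± 0.19, Rps6ka1, a kinase of the RSK family, at -0.22 ± 0.18, and Eef2k, which inhibits EEF2, at -0.22 ± 0.24. Larp1 had 4562 fragments in q2 and 5124 in q1, at -0.17 ± 0.18. In the list of ribosome assembly and rescue factors 9 of 16 genes were higher in q2 and 7 in q1. Its median was 0.01, and its largest ratios were Zfp598 at -0.19 ± 0.18, Nob1 at -0.14 ± 0.21 and Tsr1 at -0.08.

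The proteins of the mitochondrial ribosome, encoded by separate nuclear genes, had ratios mostly above 0. Of 77 Mrpl and Mrps genes, all above 100 fragments, 52 were higher in q2 and 25 in q1. Over all genes compared, 50.2% were higher in q2. A log2 ratio larger than its own deposited SD was found for 5 of the 77, where 19.5% of all genes had one. Their median log2 ratio was 0.05, with a range of -0.24 to 0.39. Their sum was 31591 fragments in q2 and 30789 in q1, a log2 ratio of 0.04. The largest ratios were those of Mrps22, at 0.39 ± 0.31, Mrps36, at 0.30 ± 0.27, and Mrpl51, at 0.27 ± 0.24. The median was 0.04 after the GC, length and level correction, against -0.08 for the 79 cytosolic members. This opposite placing of the 2 gene groups was not tested, since the table holds 1 value per condition.

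Markers of other cell states differed between the columns beside these results, and their part in the ribosomal protein ratios was not tested. B cell genes were abundant in both columns, with Ms4a1, Cd79a and Cd79b between 23973 and 37926 fragments. The 10 B cell markers summed to 245499 fragments in q2 and 264704 in q1, with 8 higher in q1. Their median log2 ratio was -0.13, close to that of the ribosomal protein genes. Their range was far wider, -0.86 to 1.73, against -0.45 to 0.42 for the ribosomal protein genes. After the GC, length and level correction the marker median was -0.05, against -0.08. Of the markers high on marginal zone B cells, Cr2 had 70851 fragments in q2 and 81167 in q1, Cd1d1 3468 in q2 and 5917 in q1, and Cd9 888 in q2 and 1608 in q1. Fcer2a, which is high on follicular B cells, had 2265 in q2 and 683 in q1.

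The marker lists, that of B cells included, were chosen with earlier results of these data known, so their counts are descriptions only. Over all genes compared, 50.2% were higher in q2 and 49.8% in q1. All 10 germinal center markers were higher in q2, summing to 10271 fragments in q2 and 2472 in q1 with a median of 4.03. So were 8 of 9 plasma cell markers, summing to 61288 in q2 and 24479 in q1 with a median of 1.37. Of 7 macrophage and monocyte markers compared, 5 were higher in q1, with a median of -1.24 and a sum over the whole list of 939 fragments in q2 and 1312 in q1. The 8 T cell markers with a value summed to 1163 fragments in q2 and 794 in q1. Both that reached 100 fragments were higher in q2, with a median of 1.40: Cd28 had 165 fragments in q2 and 30.3 in q1, and Lck had 689 in q2 and 524 in q1. Cd3e had 36.4 in q2 and 22.8 in q1. The 8 erythroid and platelet markers summed to 84.1 in q2 and 81.8 in q1, none reached 100 fragments, and Pf4 stood at 0 in q1.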

How the data were processed

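Per the labels' protocols, Trizol-extracted total RNA of 8 samples, 4 ACKR3+ and 4 ACKR3-, went into an Illumina TruSeq RNA kit. Cutadapt 1.8.1, TopHat2 2.0.14, Cuffdiff 2.2.1 and mm10 are named in the submitters' processing notes. Gene annotation, multiread handling and scaling: not given in the sources used here. The authors' deposited values are, per the file headers, Cuffdiff's estimated fragment counts per gene and condition with variances. They are 1 pooled value per condition, so no test was made, and it is not stated whether a variance describes 1 library or the condition's mean. Exact binomial (Clopper-Pearson) 95% intervals treat rounded estimates as counts and cover counting error only.

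The pseudocount of 1 makes log2 ratios of low genes too small. Of the symbols, 23623 were found in GENCODE M21 directly or by a RefSeq synonym, including all 83 members. For each gene 1 transcript was used, taken by APPRIS rank, RefSeq match and support level. The correction was a robust linear fit with terms to degree 3 over 9529 genes. Copies were rows sharing at least 20% of the copy's 50-base windows and reaching 100 fragments. Counts of Rpl37 and Rps15a were also summed with such rows. The members and lists were chosen with earlier results of these data known. Genes were named by a rule covering the extremes of each subunit, the most abundant per kb, paralogs and members under the minimum, with the 3 largest ratios of each companion list. Calculations were tested on simulated data. Python 3.11.15, pandas 2.3.3, statsmodels 0.14.6 and Biopython 1.88 were used. A few genes are counted in the totals, medians and counts but not reported here by name.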

Additional observations from a re-analysis of the deposited data

How the results depend on the processing

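No paired analysis was possible because each condition has a single pooled value without replicate numbers. Leaving out single libraries was likewise not possible. The medians of both subunits stayed below 0, and no member reached 1.5-fold, under every alternative run: minimums of 20, 500 and 5000 fragments, pseudocounts of 0 and 10, equal totals, a median ratio of 1, the correction for base composition, length and level, and the members without paralogs, with copies summed or without those of excess variance, the last 2 chosen after seeing the data. The correction moved the medians most, to -0.074 for the large and -0.078 for the small subunit, and the cause was not tested. With equal totals the log2 ratio of the summed counts of the members was -0.117 in place of -0.137. The number of members higher in q2, 5 of 79, became 7 with equal totals and 6 with the correction. It became 3 with a minimum of 500, 1 with 5000, 3 without paralogs, 2 with copies summed and 2 without members of excess variance, since each of these last settings leaves out or merges low or shared members. Of single members, Rpl13a turned to 0.030 when corrected, and with equal totals Rpl34 turned to 0.0016 and Rpl35a to 0.0092. A further 51 members under the correction and 1 with equal totals moved beyond counting error and kept their sign. Counting error limits Rpl30, Rps27l and the members under 100 fragments most.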
